A study of Mus musculus with 6 samples.

Results

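The 8 Smad genes of the mouse were followed in RNA from Prominin1-sorted forebrain cells of mouse embryos at embryonic day E12.5. They were taken by symbol (Smad1, Smad5, Smad9, Smad2, Smad3, Smad4, Smad6 and Smad7) from a count table of 52636 genes, and all 8 were found as 1 row each and passed the filter on low counts that left 16869 genes. Smad1 and Smad5 were each heterozygous for a floxed allele in every embryo, controls included (Smad1wt/fl;Smad5wt/fl), on a mixed background of CD1, 129/ola and C57BL6. The groups differed in Nestin:Cre, a transgene that expresses the recombinase Cre from regulatory sequence of the neural progenitor gene nestin: SmadNes embryos had 1 copy (Nestin:Cre+/0) and control littermates had none (Nestin:Cre0/0). There were 3 pools of sorted cells for each genotype, and the names SF3, SF4 and SF5_6 occurred once in each. The labels give neither the number of embryos in a pool nor the meaning of these names. P-values of fits without the names therefore measure the spread between pools. In fits with the names as a block they measure the spread of the genotype difference over the 3 names. The comparison addresses how transcript levels of the Smad genes differ when Cre is present together with the floxed alleles.

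Smads are the intracellular carriers of signals from bone morphogenetic proteins (BMPs), transforming growth factor beta (TGF-beta) and activins. Activated receptors phosphorylate the receptor-regulated Smads, of which Smad1, Smad5 and Smad9 serve BMP receptors and Smad2 and Smad3 serve TGF-beta and activin receptors. These join the common partner Smad4, enter the nucleus and regulate transcription, while Smad6 and Smad7 inhibit the pathway and are themselves induced by it. In the early forebrain BMP signalling takes part in dorsal midline patterning and in the balance between progenitor growth and neuron formation.

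The libraries held between 32997423 and 40744672 counts, of which 24012 to 30914 belonged to the 8 Smad genes. The lowest Smad count in any library was 51, for Smad9. In the 11 radial glia markers the summed level ran from 2012 to 2514 CPM (read counts divided by library size on the scale of edgeR's trimmed mean normalisation, TMM), and Prom1, which encodes the sorted protein, averaged 119.5 CPM in controls and 124 in SmadNes. The sorted cells also carried neuronal transcripts, since the 8 neuron markers summed to 4480 to 6161 CPM. In bulk RNA, fewer cells of a type and less RNA per cell cannot be told apart.

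Smad5 and Smad1, the genes with a floxed copy, were the Smad transcripts whose levels did not overlap between the genotypes, and both were higher in the libraries labelled SmadNes. Smad5 lies on GRCm38 chromosome 13, 56703010 to 56742377 on the plus strand, and Smad1 on chromosome 8, 79338395 to 79399518 on the minus strand. The bases just upstream of their annotated starts are shown because these are the genes whose transcript level stood apart, with the window of Smad6 as the inhibitory gene for comparison. They come from RefSeq on GRCm38.p6, where 5 of the 8 members have an entry. The gene positions above are those of GENCODE M21, whose end of Smad1, 79399518, lies inside the Smad1 window. Part of that window is therefore within the gene as GENCODE places it. Smad5 has 3 annotated starts there, and the one farthest upstream is shown. Windows read 5′ to 3′ on the gene's strand, over chr13:56702760-56703009 (plus) for Smad5, chr8:79399429-79399678 (minus) for Smad1 and chr9:64022056-64022309 (minus) for Smad6.
Smad5: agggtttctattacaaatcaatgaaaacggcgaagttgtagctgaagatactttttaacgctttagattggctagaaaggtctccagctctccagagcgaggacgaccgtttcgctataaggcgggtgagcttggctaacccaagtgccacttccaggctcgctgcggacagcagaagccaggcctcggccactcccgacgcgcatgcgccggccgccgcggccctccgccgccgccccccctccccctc
Smad1: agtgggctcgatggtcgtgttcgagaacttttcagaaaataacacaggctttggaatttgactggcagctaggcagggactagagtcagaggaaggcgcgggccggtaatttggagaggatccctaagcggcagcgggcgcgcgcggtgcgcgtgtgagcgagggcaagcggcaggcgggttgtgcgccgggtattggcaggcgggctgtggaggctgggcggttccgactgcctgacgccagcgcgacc
Smad6: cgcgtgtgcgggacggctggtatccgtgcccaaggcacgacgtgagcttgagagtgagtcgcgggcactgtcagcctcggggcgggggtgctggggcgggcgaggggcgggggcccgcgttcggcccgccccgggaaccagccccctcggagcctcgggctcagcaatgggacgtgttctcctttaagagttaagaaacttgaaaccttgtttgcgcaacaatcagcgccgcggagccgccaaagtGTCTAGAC
Capitals mark matches to GTCTAGAC, the palindrome that Smad MH1 domains bind, or to GGCGCC, a GC-rich motif bound by BMP-regulated Smads. Both motifs read the same on either strand. The Smad6 window ends in 1 GTCTAGAC, which begins 4 bases before the annotated start, and the Smad5 and Smad1 windows hold neither motif. A GGCGCC lies past the shown start of Smad5, 19 bases before its next annotated start, and the window of Smad9, not shown, holds 1 GGCGCC that begins 51 bases before the start. The windows of Smad3 and of the Smad5 start farthest downstream, also not shown, hold neither motif. Among all 32851 promoter windows of 300 bases (250 before to 50 after a start), GTCTAGAC occurred in 0.213% and GGCGCC in 11.9%. These windows are longer than the printed ones, and on this measure the shown start of Smad5 counts among those with GGCGCC. A match describes these letters only and is no evidence of binding here.

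Smad5 carries BMP signals as a receptor-regulated Smad. It stood at 289.6 CPM (SF3), 299.9 CPM (SF4) and 287 CPM (SF5_6) in the control pools. In the libraries labelled SmadNes it stood at 388, 411 and 373 CPM in the same order. Every SmadNes pool was above every control pool, with a gap far wider than the spread within either genotype. The means were 292 ± 6.74 CPM and 391 ± 18.8 CPM (SD, n = 3 each), a gain of 98.4 CPM. Within the pairs the log2 difference was 0.42 in SF3, 0.45 in SF4 and 0.38 in SF5_6.

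Smad1, the close relative of Smad5, stood at 72.7, 77.8 and 76.1 CPM in control SF3, SF4 and SF5_6. In SmadNes it stood at 86.9, 92.9 and 85.7 CPM. The genotypes did not overlap for this gene either, although the step was smaller, from 75.6 ± 2.58 to 88.5 ± 3.83 CPM (SD, n = 3 each), a gain of 12.95 CPM. The pair differences were 0.26, 0.26 and 0.17 on the log2 scale. Whether the difference of Smad5 exceeds that of Smad1 was not tested.

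EdgeR's quasi-likelihood test without the pair names as a block was the main fit. It called 0 of the 8 members, against a background of 0% of all 16869 genes. At an unadjusted p below 0.05 the same fit held 2 members, Smad1 and Smad5, and 177 genes in all. Without the block DESeq2 called 1 member (Smad5) and limma-voom 0. With the pair names as a replicate block edgeR called 1 of 8 members, Smad5, against 0.0237% of all genes (4 genes). Smad5 rose in that fit by a log2 difference of 0.42 (SE 0.034, 95% interval 0.34 to 0.50, adjusted p 0.00757, edgeR). It was also called by DESeq2 and limma-voom with the block. The blocked edgeR fit without the SF3, SF4 or SF5_6 pair called it too, at adjusted p of 0.0359, 0.00971 and 1.3e-05. Those fits rest on 2 pairs each and called 10, 48 and 149 genes in all. Smad1 had a log2 difference of 0.23 with the block (SE 0.039, 95% interval 0.14 to 0.32, adjusted p 0.257, edgeR) and was called only without the SF5_6 pair (adjusted p 0.0182, edgeR with the block).

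Groups without overlap, SmadNes above control, were found for 2 of the 8 members (25%), Smad1 and Smad5, against 2.39% of all tested genes. No member had all SmadNes libraries below all control libraries, against 2.38% of tested genes. Smad1 and Smad5 were also the 2 members higher in all 3 pairs (13.8% of tested genes were), and Smad2 was the 1 member lower in all 3 pairs (14.3% of tested genes were). These counts were known in part when the gene family was chosen. A whole-gene count sums exons inside and outside a floxed segment, so none of these values measures how much of either allele was recombined.

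**Figure D1:**
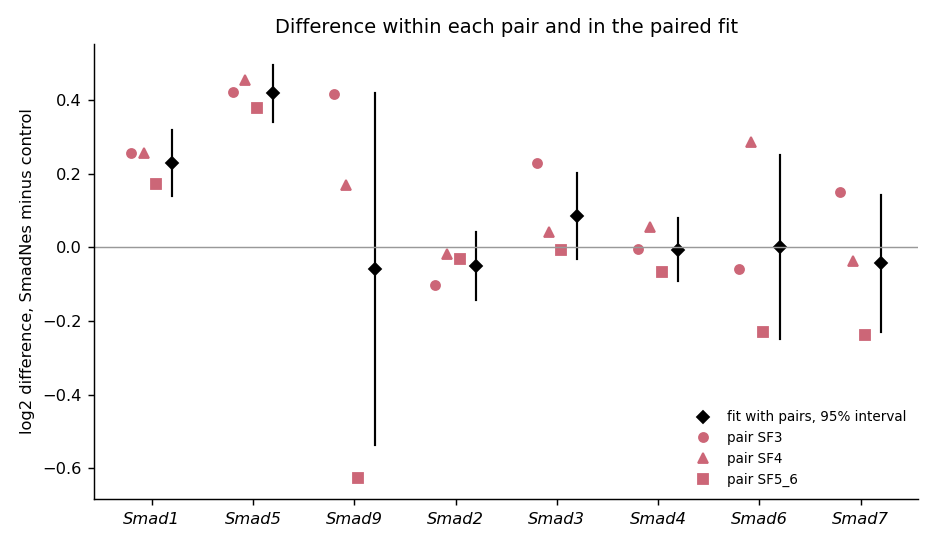
Log2 difference, SmadNes minus control, for each Smad gene (horizontal axis) within the pairs SF3 (circle), SF4 (triangle) and SF5_6 (square), with the estimate of the paired edgeR fit (diamond) and its 95% interval (line). The 3 pairs of Smad5 lie between 0.38 and 0.45 and those of Smad1 between 0.17 and 0.26, while the intervals of the other 6 genes cross 0.

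**Figure D2:**
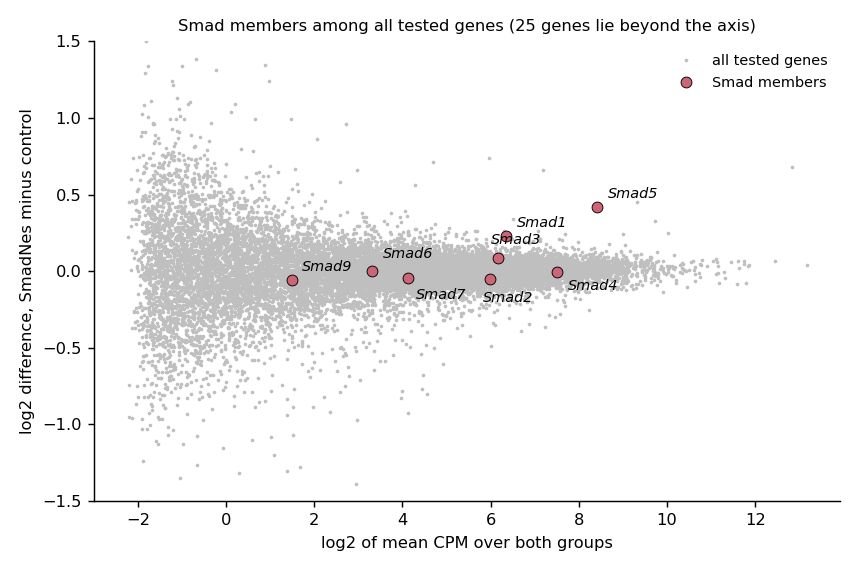
Log2 difference of the paired edgeR fit (vertical axis) against log2 mean CPM (horizontal axis) for all 16869 tested genes (grey) and the 8 Smad genes (red), with 25 genes beyond the axis limit of 1.5. Smad5 at 0.42 lies at the upper edge of the genes of its abundance, and Smad1 at 0.23 lies nearer the bulk.

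Markers of other cell types gave no call between the genotypes in either edgeR fit for the lists that follow. Of 6 ventral telencephalon markers, 5 were lower in all 3 pairs (14.3% of tested genes were), and none was at 0 in any library. Of 8 neuron markers 3 were lower and 1 was higher in all 3 pairs, and of 5 erythroid markers 2 were lower. At an unadjusted p below 0.05 the fit with the block held 4 ventral, 3 neuron and 3 erythroid markers. It also held 3 of 11 radial glia and 1 of 4 intermediate progenitor markers, and 1051 of all 16869 tested genes. It held 0 markers of cortical hem and choroid plexus, endothelium, microglia or mesenchyme. The summed level of the ventral markers ran from 22.8 to 148.5 CPM in controls and from 15.96 to 103.9 CPM in SmadNes. Dlx1, a homeobox gene of this region, stood at 16.9, 7.52 and 53.8 CPM in control SF3, SF4 and SF5_6 and at 6.31, 4.64 and 41.4 in SmadNes. The part of these cell types in the Smad5 and Smad1 differences was not tested.

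Smad9, the remaining BMP-regulated Smad, was by far the least abundant member. Its counts were 51, 111 and 155 in control SF3, SF4 and SF5_6, or 1.48, 2.75 and 4.55 CPM. In SmadNes they were 75, 102 and 102, or 1.97, 3.09 and 2.94 CPM. The genotypes overlapped fully, the pairs pointed in both directions (0.41, 0.17 and -0.63), and the paired interval of the log2 difference was wide, from -0.54 to 0.42. Both SF3 libraries were the lowest of their genotype.

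The TGF-beta and activin branch showed no called difference. Smad2 stood at 67.5, 64.0 and 63.2 CPM in control SF3, SF4 and SF5_6 and at 62.9, 63.2 and 61.9 CPM in SmadNes. Its coefficient of variation was 3.51% in controls and 1.11% in SmadNes. The groups overlapped narrowly, and the paired interval of the log2 difference was -0.14 to 0.042 (adjusted p 0.869, edgeR). Smad3 stood at 54.9, 63.6 and 91.1 CPM in control pools and at 64.4, 65.5 and 90.6 CPM in SmadNes. Its 2 SF5_6 libraries were the highest whatever the genotype, and the paired interval was -0.031 to 0.20 (adjusted p 0.827, edgeR).

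Smad4, which partners both branches, stood at 183, 188 and 172 CPM in control SF3, SF4 and SF5_6 and at 182, 195 and 164 CPM in SmadNes. The genotypes overlapped, and the paired interval of its log2 difference, -0.091 to 0.079, lies below the estimates of Smad5 and Smad1 (adjusted p 0.989, edgeR). Without the block the interval of Smad4 was -0.19 to 0.18, which overlaps that of Smad1, 0.10 to 0.35. The inhibitory Smads did not separate the genotypes either. Smad6, which preferentially blocks BMP receptors, stood at 9.49, 9.20 and 11.04 CPM in control pools and at 9.10, 11.2 and 9.41 CPM in SmadNes. Both group means were 9.91 CPM, and its paired interval was -0.25 to 0.25 (adjusted p 0.999, edgeR). Smad7, which blocks both branches, stood at 15.8, 16.6 and 21.2 CPM in control pools and at 17.5, 16.2 and 17.98 CPM in SmadNes, with a paired interval of -0.23 to 0.14 (adjusted p 0.948, edgeR). Endothelial cells are a known site of Smad6 expression, and 6 of 8 endothelial markers passed the filter, with summed levels of 17.2 to 23.1 CPM in control and 19.5 to 22.3 CPM in SmadNes. Kdr, a receptor for vascular endothelial growth factor, stood at 14.1 and 15.8 CPM on average and made up most of these sums. The endothelial marker Cdh5 stood at 2.51 and 2.49 CPM on average and ran from 0.910 to 3.42 CPM over the libraries. The part of endothelial cells in the Smad6 level was not tested.

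To compare levels between the genes, CPM were divided by the length of each gene's merged exons in GENCODE M21. On this scale of CPM per kb, Smad4 was the most abundant member in controls at 48.7 ± 2.22, followed by Smad5 at 39.4 ± 0.908 (SD, n = 3). Smad3 (12.6 ± 3.41) and Smad1 (12.1 ± 0.412) came next with overlapping ranges, then Smad2 at 7.39 ± 0.260. Smad7 stood at 3.95 ± 0.646, Smad6 at 3.09 ± 0.309 and Smad9 at 0.545 ± 0.288. Neighbours in this order overlapped over the control pools only for Smad3 with Smad1. The median tested gene stood at 4.26 CPM per kb, so Smad4 exceeded 95.6% and Smad5 94.0% of tested genes with a known length, while Smad9 exceeded 19.4%.

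Between the 2 most abundant Smads the order per length turned over with genotype. In each of the 3 control libraries Smad4 was above Smad5, at 49.3 against 39.0, 50.5 against 40.4 and 46.2 against 38.7 CPM per kb. In each of the 3 SmadNes libraries Smad5 was above Smad4, at 52.3 against 49.1, 55.35 against 52.5 and 50.3 against 44.1 CPM per kb. Across SmadNes pools the ranges of the pair overlap, so the order holds within libraries. Absolute levels depend on which exons are counted in the length, while the change of order between libraries follows the difference of Smad5 already given. In CPM not divided by length Smad5 was above Smad4 in every library, for example at 289.6 against 183 CPM in control SF3.

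**Figure D3:**
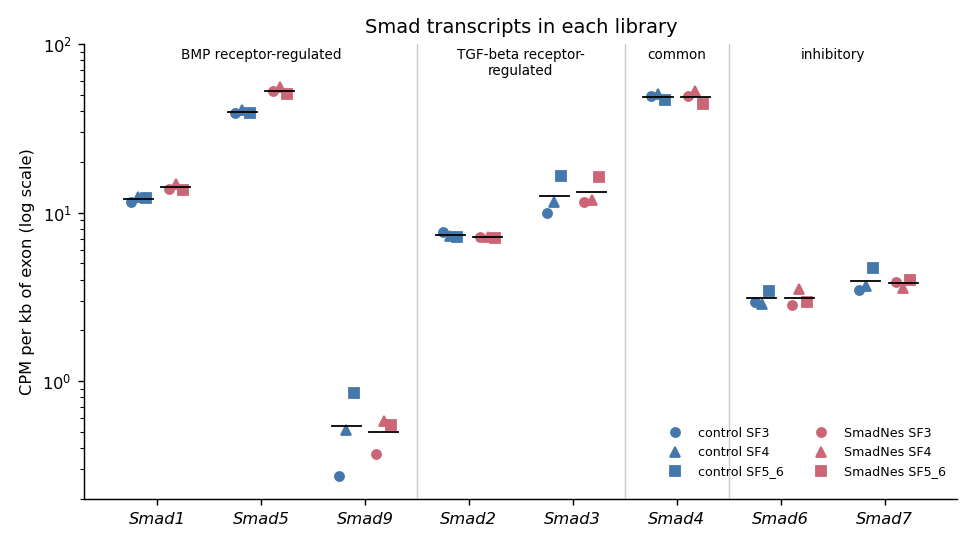
CPM per kb of exon on a log scale (vertical axis) for each Smad gene in the control (blue) and SmadNes (red) libraries, with the pool name as the symbol and the mean of 3 pools as a bar, grouped by role. Smad5 moves from 39.4 to 52.6 and passes Smad4, which stays near 48.6, and Smad9 lies below 1 in every library.

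Summed over the BMP-regulated Smads, the level per length was 50.9, 53.35 and 51.7 CPM per kb in control SF3, SF4 and SF5_6 and 66.5, 70.8 and 64.55 CPM per kb in SmadNes. Smad5 made up 74.8% to 76.6% of this sum in controls and 77.9% to 78.6% in SmadNes, Smad1 most of the rest and Smad9 at most 1.64%. The ratio of Smad5 to Smad1 was 3.36, 3.25 and 3.18 in controls and 3.77, 3.73 and 3.68 in SmadNes, without overlap. The sum of Smad2 and Smad3 was 17.6, 18.8 and 23.6 CPM per kb in controls and 18.8, 19.0 and 23.4 CPM per kb in SmadNes. The ratio of BMP-regulated to TGF-beta-regulated Smads was therefore higher in SmadNes within each pair (2.89 to 3.54, 2.84 to 3.72 and 2.19 to 2.76), although the groups overlap because both SF5_6 pools had the lowest ratio of their genotype. Inhibitory Smads were 5.06% to 6.27% of the summed level of all 8 members in controls and 4.74% to 4.97% in SmadNes. That summed level includes Smad5. The inhibitory sum itself overlapped between the genotypes. It stood at 6.45, 6.54 and 8.135 CPM per kb in control SF3, SF4 and SF5_6 and at 6.71, 7.08 and 6.91 in SmadNes. These sums rest on members already described and were given no test.

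Some Smads varied with the pool name. EdgeR called the pool name (SF3, SF4 or SF5_6, with genotype in the model) for 3 of the 8 members, Smad3, Smad4 and Smad9, against 28.8% of all tested genes, so the share of members (37.5%) is close to the background. Smad3 averaged 59.6, 64.55 and 90.9 CPM in SF3, SF4 and SF5_6, 1.53-fold higher in SF5_6 than in SF3 (adjusted p 0.000335, edgeR). Smad9 averaged 1.72, 2.92 and 3.75 CPM (adjusted p 0.0312, edgeR), and Smad4 182.7, 191 and 168 CPM (adjusted p 0.0326, edgeR). Smad5 (338.8, 355 and 330.2 CPM, adjusted p 0.206, edgeR) and Smad1 (79.8, 85.35 and 80.9 CPM, adjusted p 0.292, edgeR) did not pass, nor did Smad2 (0.649), Smad6 (0.657) or Smad7 (0.136).

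The call of Smad3 held in each of the 9 alternative fits of the pool name, whereas Smad9 was lost with DESeq2 (adjusted p 0.0881) and without control SF3 (0.188) or SmadNes SF4 (0.0596). Smad4 was lost with DESeq2 (0.0536) and without SmadNes SF4 (0.127), control SF5_6 (0.0583) or SmadNes SF5_6 (0.286), and Smad7 was called without SmadNes SF5_6 (0.0372). Marker lists moved with the pool name as well. The 8 neuron markers summed to 6161 and 5797 CPM in the SF3 pools (control, then SmadNes), 5210 and 5505 in SF4 and 4480 and 4577 in SF5_6. The 7 mesenchyme markers summed to 600.6 and 840.0 CPM in SF3, 410.4 and 251 in SF4, and 974 and 1236 in SF5_6. The 5 erythroid markers tested summed to 223 and 213 CPM in SF3, 65.3 and 67.3 in SF4, and 806 and 470.3 in SF5_6. None of these lists had a marker at 0 among those tested, and their part in the pool differences of Smad3, Smad9 and Smad4 was not tested.

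**Figure D4:**
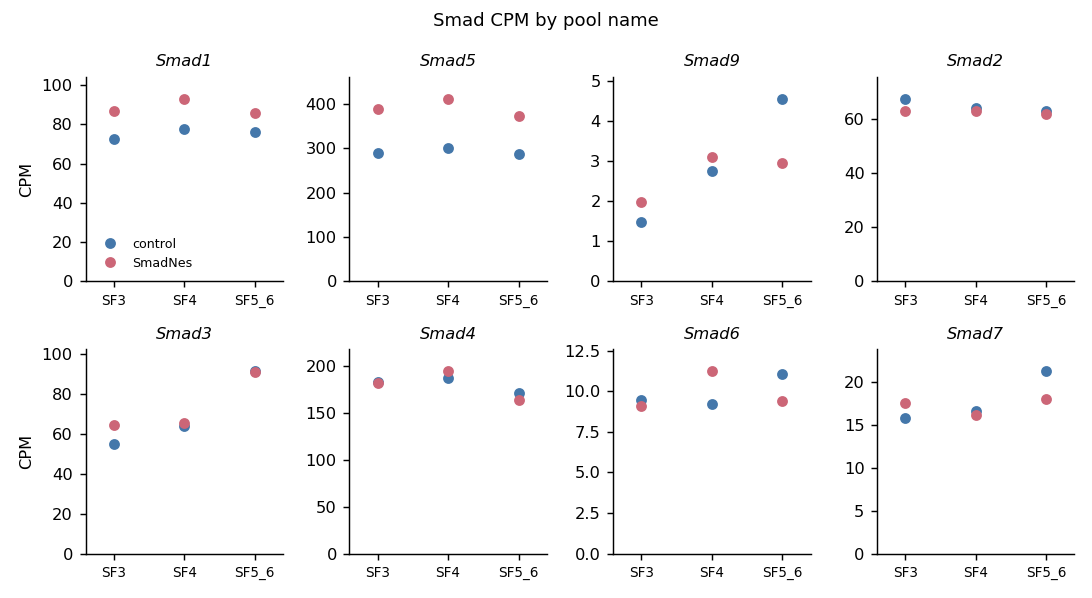
CPM of each Smad gene (vertical axes from 0) in the pools SF3, SF4 and SF5_6 for control (blue) and SmadNes (red) libraries, 1 point per library. Smad3 is highest in both SF5_6 libraries (91.1 and 90.6 CPM), whereas for Smad5 and Smad1 the red points lie above the blue points in every pool.

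The other genes of the pathway gave no called difference between the genotypes, and the medians of their lists are set beside the median of all tested genes, -0.00038 on the log2 scale. Of 5 BMP receptor genes edgeR called 0 without and 0 with the block (median log2 difference 0.045). In all 3 pairs 2 of them were higher and 1 was lower (13.8% and 14.3% of tested genes were). Bmpr1a, a type I BMP receptor, stood at 161 ± 10.9 CPM in control pools and 168 ± 14.2 CPM in SmadNes, and Bmpr2, the type II receptor, at 294 ± 7.43 and 303 ± 22.95 CPM (SD, n = 3 each). Acvrl1, the type I receptor of endothelium, stood at 1.04 ± 0.755 and 0.827 ± 0.549 CPM. Of 8 TGF-beta and activin receptor genes 0 were called in either fit (median 0.13). Against 13.8% of tested genes, 2 of the 8 were higher in all 3 pairs. One of them was Tgfbr1, the type I TGF-beta receptor, at 185, 194 and 216 CPM in control SF3, SF4 and SF5_6 and 202, 209 and 233 CPM in SmadNes. The other was Acvr1c, the Nodal receptor ALK7, at 5.28 ± 2.34 and 6.31 ± 3.00 CPM. Its log2 differences within the pairs SF3, SF4 and SF5_6 were 0.32, 0.22 and 0.18. Tgfbr3, the co-receptor betaglycan, stood at 8.97 ± 3.30 and 9.98 ± 3.46 CPM.

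Summed CPM, not divided by length, ran from 157.8 to 219.9 over the libraries for the 13 ligands tested. It ran from 503.4 to 557.3 for the 5 BMP receptor genes. For the 8 TGF-beta and activin receptor genes it ran from 524.9 to 573.4. Of 16 listed ligands, 13 passed the filter and 0 were called (median -0.0063). Tgfb2 stood at 28.4 ± 3.94 (control) and 31.9 ± 4.08 CPM (SmadNes), higher in each pair. Tgfb3 stood at 6.19 ± 0.557 and 5.66 ± 1.24 CPM and Inhba, an activin subunit, at 0.854 ± 0.628 and 0.463 ± 0.291 CPM. Gdf6, Gdf7 and Nodal did not pass the filter.

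Of 29 genes for proteins that bind, modify or degrade Smads, 28 passed the filter and 0 were called with or without the block (median 0.027). Of the 28, 21 had a positive difference, as did 8403 of all 16869 tested genes, and 4 were higher in all 3 pairs, against 13.8% of tested genes. Zfyve9, which encodes the receptor anchor SARA, stood at 59.6 ± 1.86 and 64.5 ± 4.38 CPM. Usp15, a deubiquitinase that acts on receptor-regulated Smads, stood at 80.8 ± 2.78 and 84.7 ± 3.56 CPM. Zeb2, the Smad-interacting repressor of maturing neurons, varied mainly with the pool, at 413 and 396 CPM in SF3 (control, then SmadNes), 323 and 349 in SF4 and 199 and 224 in SF5_6.

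Target genes of the BMP branch gave no call either. Of 10 BMP targets 0 were called in either fit (median -0.10). The inhibitors of differentiation Id1 and Id3 stood at 5.79 against 5.31 and 13.6 against 14.1 CPM in SF3 (control against SmadNes). In SF4 they stood at 6.35 against 6.80 and 14.6 against 15.02 CPM, higher in SmadNes for both. In SF5_6 they stood at 16.4 against 11.1 and 52.3 against 34.8 CPM, so the control SF5_6 library was the highest for both. Id4 stood at 374 ± 53.2 and 409 ± 50.4 CPM, Id2 at 71.8 ± 19.8 and 63.5 ± 14.7 CPM and Atoh8 at 5.08 ± 2.02 and 4.33 ± 0.723 CPM. Of 13 targets of TGF-beta and activin, 8 passed the filter and 0 were called (median 0.023). Skil, which encodes the Smad corepressor SnoN, stood at 105 ± 2.94 and 107 ± 1.39 CPM, Tgif1, a repressor that binds Smads, at 38.2 ± 8.63 and 40.5 ± 5.90 CPM and Ldlrad4, which restrains TGF-beta signalling, at 4.19 ± 0.402 and 4.45 ± 0.513 CPM. Cdkn1a, which encodes the cell cycle inhibitor p21, stood at 48.9 ± 16.6 and 52.6 ± 3.37 CPM, and edgeR with the block called it only without the SF5_6 pair (adjusted p 0.00338). That fit called 149 genes in all.

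The members share little sequence at the length of a read. None of the 50-base words in the transcripts of 1 Smad occurred in the transcripts of another Smad. Smad5 shared 51 of its 7506 words with Gm27301, a small RNA annotated inside it on the same strand, and Smad9 shared 9 of 5319 with other genes. The other 6 members shared none. Their genome positions are partly linked: Smad3 and Smad6 lie 195.1 kb apart on chromosome 9, and 3 members (Smad2, Smad4 and Smad7) lie on chromosome 18.

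The genes beside Smad5 and Smad1 gave no called difference. Within 2000 kb of Smad5, 47 genes were tested, 22 with a positive log2 difference in the paired fit, with a median of -0.0039 and no call (edgeR). None of the 47 exceeded the log2 difference of Smad5. Its nearest tested neighbours were Fbxl21 (1.67 CPM in both genotypes), Tgfbi (5.89 and 5.99 CPM), Trpc7 (0.918 and 0.843 CPM) and Spock1 (7.35 and 7.04 CPM). Within 2000 kb of Smad1, 23 genes were tested, 15 with a positive difference, with a median of 0.032 and no call. Of these, 2 exceeded the estimate of Smad1, namely Ednra and Gm45728, which are named after their values were seen. The nearest were Mmaa (18.1 and 18.2 CPM), Gm4890 (4.33 and 4.62 CPM), Gm45601 (0.916 and 0.827 CPM) and Otud4 (174 and 181 CPM).

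**Figure D5:**
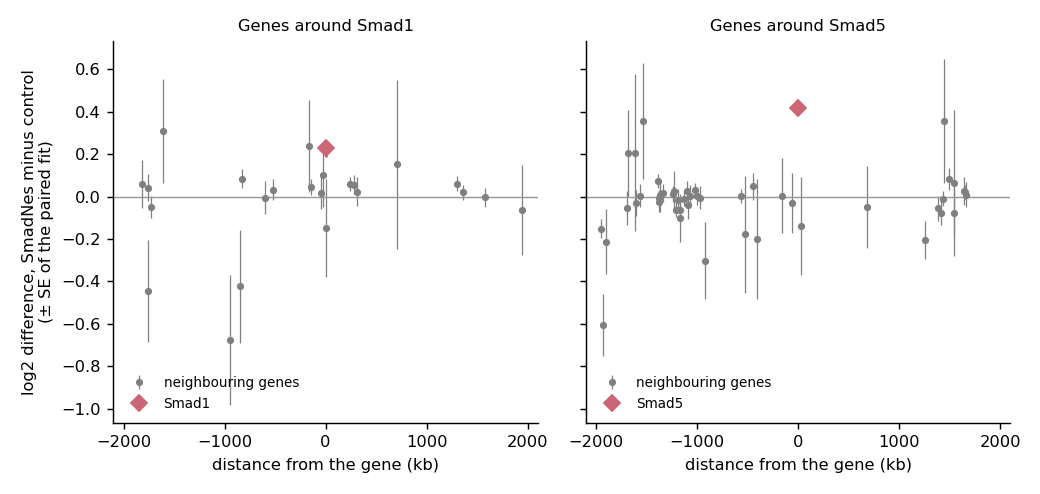
Log2 difference, SmadNes minus control, of the paired edgeR fit (vertical axis, bars are ± 1 SE) for tested genes within 2000 kb of Smad1 (left) and Smad5 (right), by distance in kb from the gene (horizontal axis). Smad5 at 0.42 lies above all 47 of its neighbours, while 2 of 23 neighbours lie above Smad1 at 0.23.

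Genes with the most similar pattern to Smad5 and Smad1 were sought among 9920 other genes averaging 10 CPM or more, by Pearson's r of log2 CPM over the 6 libraries. These libraries form 3 pairs and share scaling, so r is a description only. For Smad5 the highest were Zbtb25 (r = 0.996), Rpa3 (0.982), a subunit of the single-strand DNA-binding protein RPA, and Timm17a (0.982), part of the mitochondrial import channel, and 31 genes had r above 0.9. For Smad1 they were Timm17a (0.997), the superoxide dismutase gene Sod1 (0.987) and the adenosine kinase gene Adk (0.986), and 30 genes had r above 0.9. The steps of these genes were smaller than that of Smad5: Zbtb25, for example, stood at 15.1, 15.45 and 15.2 CPM in control SF3, SF4 and SF5_6 and 16.8, 16.99 and 16.4 CPM in SmadNes.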

How the data were processed

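RNA of 6 pools of Prominin1-sorted forebrain cells, 3 for each genotype, was sequenced as stranded mRNA. Per the labels' protocols the authors aligned reads with STAR 2.5.3a to GRCm38 and estimated abundance with RSEM 1.3.0 on GENCODE M15, and the submitters' processing notes also list DESeq2 1.18. The deposited values are expected counts per gene, whole numbers without scaling between libraries, and how isoform estimates became whole gene counts was not stated there. A count of 0 allows at most 3 counts, 0.0909 CPM or less, for counting error only.

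Counts were fitted over all genes with edgeR 4.0.16 in R 4.3.3 (TMM, filterByExpr, quasi-likelihood F test, genotype as the term). Calls were made at an adjusted p (Benjamini-Hochberg) below 0.05. DESeq2 1.42.0, limma 3.58.1 (voom), other scaling and filters, and the omission of each library or pair were alternatives, and the fits were tested on simulated data. Means ± SD are of CPM with TMM scaling, log2 differences are SmadNes minus control, and pair differences add 0.5 to each count. Each column was matched to the sample whose title starts with its name. Positions and exon lengths come from GENCODE M21 on GRCm38, where 16838 of 16869 tested genes matched by ID.

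The pool names recur in both groups, and the labels speak of pairs of samples. Deviations from the group mean correlated at 0.45, 0.66 and 0.69 between same-named libraries and at or below -0.087 between others. Deviations within a group sum to 0 for each gene, so positive same-named values push the others negative. Same-named libraries were taken as pairs on the labels and the same-named values. The biological coefficient of variation common to all genes fell from 0.198 to 0.0556 when the replicate block was added.

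The members and gene lists were chosen with earlier results of these data known. Besides the 8 members, the named genes are the 3 with the smallest unadjusted p in each pathway list, any called in an alternative, Id1, Id3, Bmpr1a, Tgfbr1 and Zeb2, the most abundant markers where a list is discussed, the 2 nearest tested genes on each side of Smad1 and Smad5, and the 3 most similar patterns. Others are said to be named after their values were seen. One gene that this rule names is not reported here. No set test was made.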

Additional observations from a re-analysis of the deposited data

How the results depend on the processing

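The log2 differences of Smad5 and Smad1 were positive in all 17 alternatives each (0.38 to 0.45 and 0.19 to 0.26). In the paired analysis with the replicate block edgeR called 4 genes and 1 member, and the block changed no other member's call. DESeq2 called 7 genes without and 13 with the block, limma-voom 1 and 8, and each of these except limma-voom without the block called 1 member. Omitting a library or a pair gave 0 to 149 genes and 0 to 2 members called, with every call from the paired fits, in which omitting the SF3, SF4 or SF5_6 pair gave 10, 48 or 149 genes. For the pool name DESeq2 called 3161 genes and 1 member against 4864 and 3, and omitting 1 library left 3380 to 5029 genes and 1 to 3 members. With the longest transcript as length 6 of 8 ranks were kept, since Smad1 passed Smad3.

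Differences near 0 changed sign, none of them called. Omitting libraries or pairs gave ranges of -0.45 to 0.32 for Smad9, -0.11 to 0.30 for Smad3, -0.064 to 0.061 for Smad4, -0.15 to 0.12 for Smad6 and -0.14 to 0.082 for Smad7. Smad6, at 0.000014 on all libraries without the block, also turned negative with RLE size factors (-0.0042), DESeq2 (-0.0043, and -0.0050 with the block), limma-voom (-0.0019), no filter (-0.0033) and a minimum of 1 CPM (-0.0030). Smad2 was negative in all 17. Depth limits Smad9 most, with 51 to 155 counts per library.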
